A study of Mus musculus with 14 samples.

Results

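The 200 transcripts with the highest mean normalized value in mouse inguinal fat were described here. Inguinal fat is a subcutaneous white adipose depot. The mean was taken for each row of the deposited table over all 14 libraries, and the 200 highest of 55419 rows, 0.361% of them, were kept. In white fat, abundant transcripts usually include those for handling of fatty acids, for secreted proteins of the adipocyte and for general machinery such as ribosomes and mitochondria. Inguinal fat can also take on brown-like, heat-producing cells when sympathetic nerves are active, and the angiotensin type 2 receptor, one of the receptors of the renin-angiotensin system, was the drug target of the study. None of the 200 transcripts can be given a gene name or a role, because the table holds only UCSC transcript identifiers of the mouse build mm9, with no symbols beside them, and 0 identifiers matched a symbol in the reference used here. They are therefore called by identifier, and marker genes of adipocytes or of other cells in the depot were not analysed here. The labelled tissue was thus not checked against its markers.

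All mice were of the C57BL/6J strain. Non-transgenic mice had received a saline infusion (CON, 3 libraries from 2 males and 1 female) or an infusion of CGP, which activates the angiotensin type 2 receptor (CON_CGP, 4 libraries). Transgenic mice in which the brain renin-angiotensin system is specifically activated had received saline (SRA, 3 libraries from 1 male and 2 females) or CGP (SRA_CGP, 4 libraries). Both CGP groups held 2 males and 2 females. The labels give no age, dose, length of infusion or promoter of the transgene. They number the replicates without saying how they relate to animals, cages or days, so p-values measure only the spread between these libraries. In bulk tissue, fewer cells of a type and less RNA per cell cannot be told apart.

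Each value is a normalized count that the authors had rounded to a whole number. Every column summed to between 79970748 and 79985973, so the original depth is unknown and a share of the column total is the natural scale. The values are not divided by transcript length, so a share is a share of counted reads and not of molecules. Some libraries stood apart. SRA replicate 3 held 68 transcripts in its own top 200 that are not among the 200 studied, against 12 to 45 in each of the other libraries. In 6 libraries, a set of transcripts otherwise found in mice of the other sex summed to over 1000: CON replicate 3, CON_CGP replicates 1 and 4, SRA replicate 3, and SRA_CGP replicates 1 and 3. Those sums were 1117 to 4153, against 15452 to 51743 for the same sets in mice of the sex they mark. None of the 12 male and 49 female transcripts of these sets is among the 200.

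Many of the 200 rows had nearly the same values as their neighbours. Rows next to each other in the table whose values lay within 0.1 log2 units in every library were merged, which left 147 clusters, 114 of them single rows. The other 33 clusters held 86 rows, and the largest held 7 (uc008hkm.1 to uc008hks.1). Near-identical rows that were not neighbours, such as uc008zro.2 and uc012edr.1, stayed in separate clusters. Counts of clusters can therefore still hold the same signal more than a single time. The highest mean, 2039295 for uc008hpr.2, was 66.3-fold above that at rank 200. The limit itself was not a gap: uc008iim.2 at rank 199 averaged 31060.3, uc008npf.1 at rank 200 averaged 30737.1, and the first row left out, uc008iih.2, averaged 30630.3. Nearly all members were abundant everywhere. In 190 of the 200 the value was above 10000 in every library, in 197 it was above 1000, and no member was at 0 in any library.

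The members held a large portion of every library. In CON this was 20.5%, 27.8% and 20.4% of the column total, and in SRA 29.6%, 29.7% and 26.3%. In CON_CGP they held 26.9%, 20.5%, 24.0% and 28.0%, and in SRA_CGP 26.9%, 23.6%, 33.0% and 30.7%. The lowest shares were thus in CON replicates 1 and 3 and in CON_CGP replicate 2, the highest in SRA_CGP replicates 3 and 4, and every pair of groups overlapped in range. Over all 14 libraries the share was 26.3% ± 3.99 (SD). When each cluster was counted only a single time, in the members and in the rest of the table alike, the share ran from 22.7% to 37.1%. Beyond rank 200 the abundance fell off: ranks 201 to 400 held 4.92% to 5.98% of a library.

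**Figure D1:**
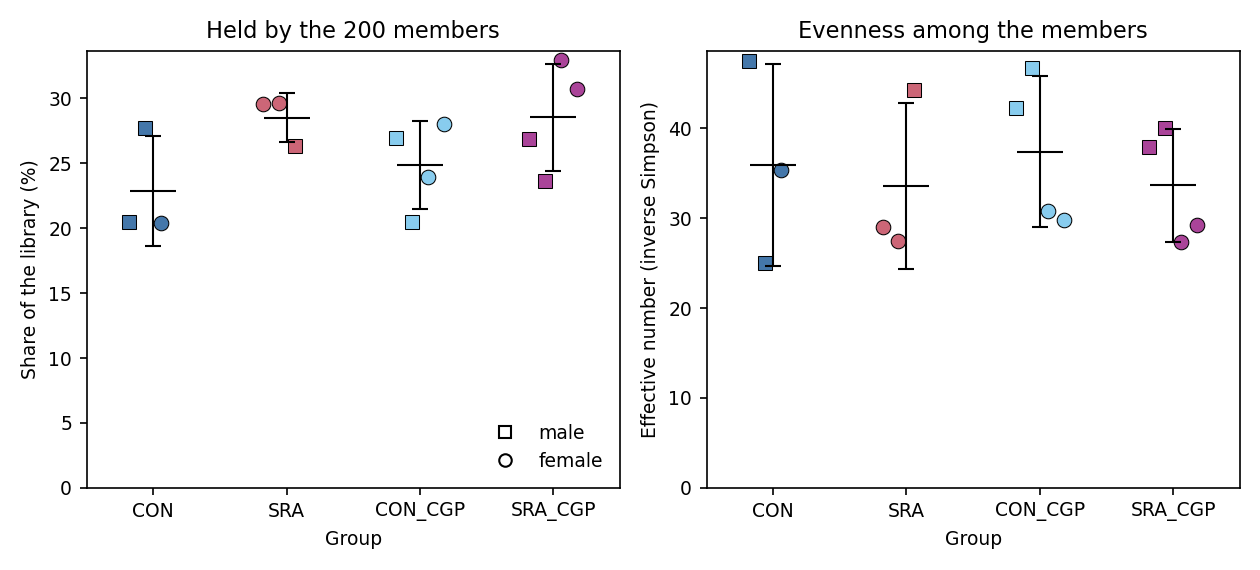
Left, percent of each library's total held by the 200 members; right, the effective number of members (inverse Simpson index). Each point is a library of the group on the x axis, squares are males and circles females, and the line with its bar is the mean ± SD (n = 3, 3, 4 and 4). Shares run from 20.4% to 33.0% with overlapping groups, and all 7 females have an effective number of 35.4 or lower.

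The sum was concentrated in a few rows. The 10 highest members alone held 7.45% to 16.7% of a library, the 50 highest 12.5% to 23.5% and the 100 highest 16.0% to 27.6%. Between 10 and 23 members made up 50% of the members' sum in a library, whereas 1192 to 2711 rows were needed for 50% of the whole library. Concentration was also expressed as the inverse Simpson index, the number of equally abundant members that would give the same concentration. It ran from 25.03 in CON replicate 2 to 47.5 in CON replicate 1, so the extremes both lay among the untreated non-transgenic males. The group means were 36.0 ± 11.2 (SD, n = 3) in CON, 33.6 ± 9.27 (n = 3) in SRA, 37.4 ± 8.39 (n = 4) in CON_CGP and 33.7 ± 6.28 (n = 4) in SRA_CGP.

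**Figure D2:**
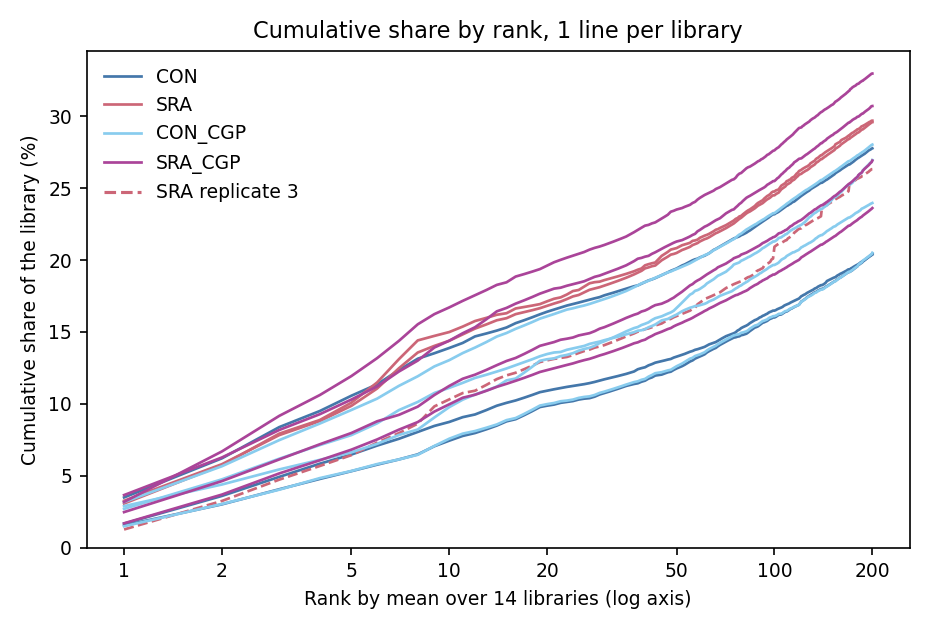
Cumulative percent of the library (y axis) against rank by the mean over 14 libraries (x axis, log scale), 1 line per library coloured by group, with SRA replicate 3 dashed. The lines separate within the first 10 ranks, where they already span 7.45% to 16.7%, and end between 20.4% and 33.0%.

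The highest row, uc008hpr.2, was at the top in 9 of the 14 libraries. It held 1.56%, 3.502% and 1.68% of the CON libraries, 3.27%, 3.08% and 1.28% of the SRA libraries, 2.90%, 1.499%, 2.71% and 3.18% of the CON_CGP libraries and 2.48%, 1.70%, 3.19% and 3.67% of the SRA_CGP libraries. Low and high libraries thus occurred in each group, and the difference by transgene averaged over both infusions did not pass (0.04 ± 0.27 SE on the log2 scale, limma adjusted p = 0.921). The neighbouring row uc008hps.1 followed it closely over the 14 libraries (Pearson's r = 0.992 of log2 values). The nearest row elsewhere was uc007uhh.1 with r = 0.843. These libraries share group and sex differences, so the coefficients describe likeness only.

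In the other 5 libraries the top row was uc009vfc.1, which belongs to the longest run of neighbouring members. This run of 8 rows, uc009vev.1 to uc009vfc.1 in table order, took 5 of the first 8 ranks and held 4.10% to 10.4% of a library. It held 4.12%, 8.05% and 5.28% in CON, 8.43%, 9.37% and 6.09% in SRA, 4.29%, 4.10%, 5.96% and 7.19% in CON_CGP, and 6.22%, 5.82%, 10.4% and 7.75% in SRA_CGP. That was 15.9% to 31.7% of the members' sum. The 8 rows were not near-identical copies, since their means ran from 34149.6 for uc009vev.1 to 1780785 for uc009vfc.1, but they varied together: over the 28 pairs the lowest r was 0.845 and the median 0.926. Whether reads could be shared between these neighbours was not stated by the authors, so the split of reads among them is uncertain. Outside the run, uc012hdl.1 followed its sum most closely (r = 0.971), then uc007ams.1 (0.959) and uc009utc.1 (0.943). The row that ran most strongly opposite to it was uc008gfk.1 (r = -0.788).

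Of the remaining rows of the first 10, the row uc012hdm.1, with 0.980% ± 0.195 of a library (SD, n = 14), varied least among the 10, by 2.16-fold from the lowest to the highest library. The row uc007mut.1 varied most, by 5-fold, with 1.41%, 1.62% and 0.658% in SRA against 0.362%, 0.989% and 0.472% in CON. For uc008oqs.1 the highest library was SRA replicate 3 with 1.20%, while the other SRA libraries held 0.460% and 0.314%. In the CGP groups it was more even, with 0.691% ± 0.103 (SD, n = 4) in CON_CGP and 0.788% ± 0.0901 (n = 4) in SRA_CGP, against 0.454% ± 0.0982 (n = 3) in CON. The row uc009lwq.1 held 0.343% ± 0.0591 in CON, 0.371% ± 0.111 in SRA, 0.503% ± 0.156 in CON_CGP and 0.518% ± 0.0763 in SRA_CGP. From the lowest to the highest library, the 10 rows thus varied by between 2.16-fold and 5-fold.

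**Figure D3:**
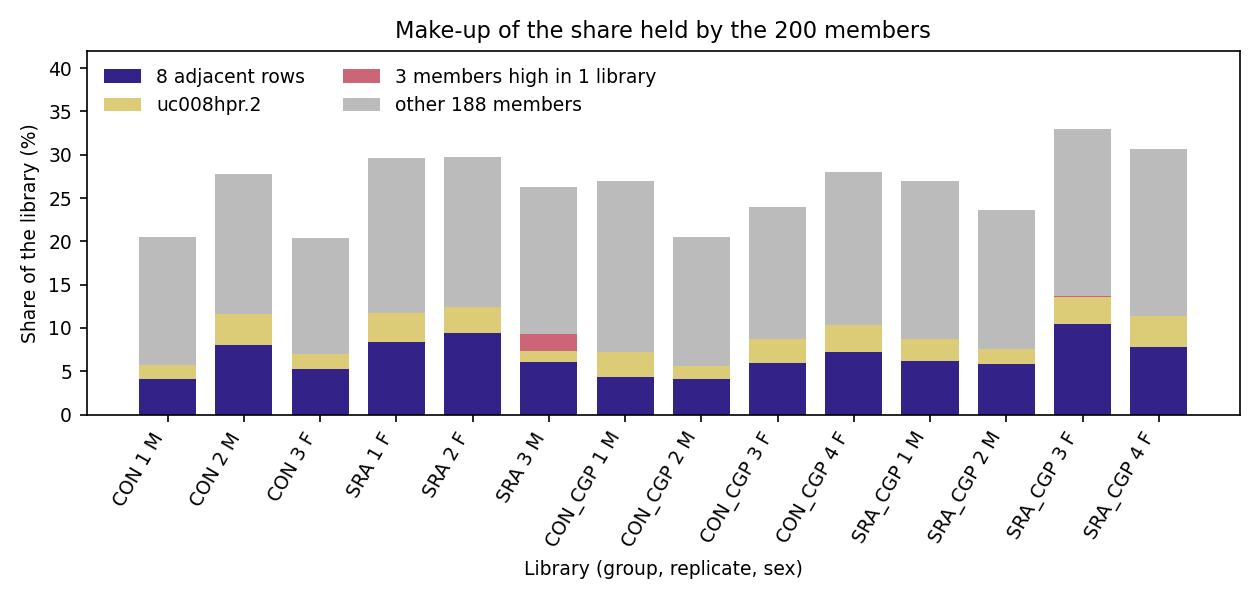
Stacked bars of the percent of each library held by the members, for 14 libraries named by group, replicate and sex: the run of 8 adjacent rows, uc008hpr.2, the 3 members that are high in 1 library, and all other members. The run grows from 4.10% in CON_CGP replicate 2 to 10.4% in SRA_CGP replicate 3, and the 3 members show only in SRA replicate 3, where they hold 1.94%.

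The 3 exceptions, uc007jmj.1, uc009jrf.1 and uc009nwr.1, owe their place among the 200 to SRA replicate 3. For uc007jmj.1 the values were 9, 3 and 54 in CON, 688, 943 and 658215 in SRA, 359, 2847, 2515 and 4216 in CON_CGP, and 20477, 1440, 26340 and 4311 in SRA_CGP. For uc009jrf.1 they were 111, 40 and 100 in CON, 590, 731 and 489415 in SRA, 501, 1978, 3335 and 2699 in CON_CGP, and 15971, 1127, 27136 and 4249 in SRA_CGP. For uc009nwr.1 they were 666, 322 and 191 in CON, 1034, 1220 and 406483 in SRA, 1268, 2651, 4495 and 2891 in CON_CGP, and 23522, 2272, 27147 and 4357 in SRA_CGP. In each case SRA replicate 3 was far above the rest, with 91.1%, 89.3% and 84.9% of the row's total, and SRA_CGP replicates 1 and 3 came next. The most that 1 library held of any other member was 20.2%. Without SRA replicate 3 the 3 rows still varied together (r between 0.887 and 0.968 over 13 libraries, 0.918 to 0.981 with it), and none of the 3 was then among the 200 highest. Of the 68 rows in the own top 200 of SRA replicate 3 that are not members, 66 were over 4-fold above the mean of the other 13 libraries. The 68 rows held 6.23% of that library and 0.0755% to 0.468% of the others. The source of these transcripts was not tested.

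Membership itself varied by library. Of the 200, 96 members in 73 clusters were in the top 200 of every library taken alone. In all, 402 rows reached the top 200 of at least 1 library. Of these, 119 did so in a single library, and 70 of the 119 in SRA replicate 3.

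Whether the transgene, CGP or sex went with how much of the library the members held was tested on the shares. The members held more in transgenic than in non-transgenic mice by 4.67 percentage points, with CON at 22.9% ± 4.24 (SD, n = 3), SRA at 28.5% ± 1.92 (n = 3), CON_CGP at 24.9% ± 3.38 (n = 4) and SRA_CGP at 28.5% ± 4.13 (n = 4). In an exact 2-sided permutation test within infusion this gave p = 0.0386, which did not pass after adjustment over the 9 tests of this family (adjusted p = 0.174, Benjamini-Hochberg). The difference was 5.66 points under saline (exact permutation p = 0.2, where 0.1 is the smallest possible) and 3.69 points under CGP (exact permutation p = 0.286). For CGP against saline the share differed by 1.00 point (exact permutation p = 0.594, adjusted p = 0.763), and by -2.18 points without the 6 libraries that stood apart on transcripts of the other sex. For females against males it differed by 2.11 points (exact permutation p = 0.290, adjusted p = 0.522).

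The run of 8 rows accounted for 2.16 of the 4.67 points, or 46.1%, and the 10 highest rows for 2.95 points, or 63.2%. Ranks 11 to 50 added 0.709, ranks 51 to 100 added 0.430 and ranks 101 to 200 added 0.583 points. The share was higher in transgenic mice for 121 members, by 5.75 points in all, and lower for 79, by -1.07 points. The 3 members high in SRA replicate 3 gave 0.345 points. Without them the difference was 4.33 points. For CGP against saline, 141 members were higher by 2.46 points in all and 59 were lower by -1.45 points. For females against males, the run gave 1.86 points and uc008hpr.2 gave 0.783, while 131 members were lower by -2.54 points in all.

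Evenness among the members was tested in the same way. The effective number of members was 40.5 ± 7.64 (SD, n = 7) in males and 29.9 ± 2.71 (n = 7) in females, a stratified difference of -10.4 (exact permutation p = 0.0340, adjusted p = 0.174). Thus it did not pass after adjustment either. Leaving out CON replicate 2, the male with the lowest number, gave -13.2 with an adjusted p = 0.0208 in the same exact test. Leaving out CON replicate 3 gave -13.6 with an adjusted p = 0.0417 in that test. That library is the only CON female, so without it CON dropped out of the comparison of the sexes. In CON her number, 35.4, lay between those of the males, 47.5 and 25.03. For the transgene the difference was -3.04 (exact permutation p = 0.511) and for CGP 0.743 (exact permutation p = 0.876).

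Spread was next described on log2(value + 1), where all 200 members passed the filter on a mean of at least 10. The median SD within a group was 0.345 for the members, with quartiles of 0.251 and 0.482. Ranks 201 to 400 had 0.346, ranks 401 to 1000 had 0.274, ranks 3001 to 10000 had 0.226 and all 39956 transcripts tested had 0.329. The most abundant transcripts were thus not the steadiest in these libraries. With each cluster counted a single time the median was 0.371, and without the 3 members high in SRA replicate 3 it was 0.345. By group, the members' median SD was 0.307 in CON against 0.224 for all tested transcripts, 0.258 against 0.244 in SRA, 0.368 against 0.308 in CON_CGP and 0.295 against 0.344 in SRA_CGP.

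The spread between groups was described by the SD of the 4 group means. A mean of 3 or 4 libraries varies less than a single library. This SD and the SD within groups are therefore unlike measures, and which is larger does not show whether groups differ. The SD of the 4 group means had a median of 0.273 over the members and 0.229 over all tested transcripts. It exceeded the SD within groups in 53 members, 26.5%, against 17.9% of all tested transcripts. Of the sum of squares of a member, groups took a median of 36.3%, sex 11.0% and the rest 45.8%. Group terms take a part of it even where groups do not differ. Over all tested transcripts the medians were 31.8%, 5.94% and 55.4%.

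**Figure D4:**
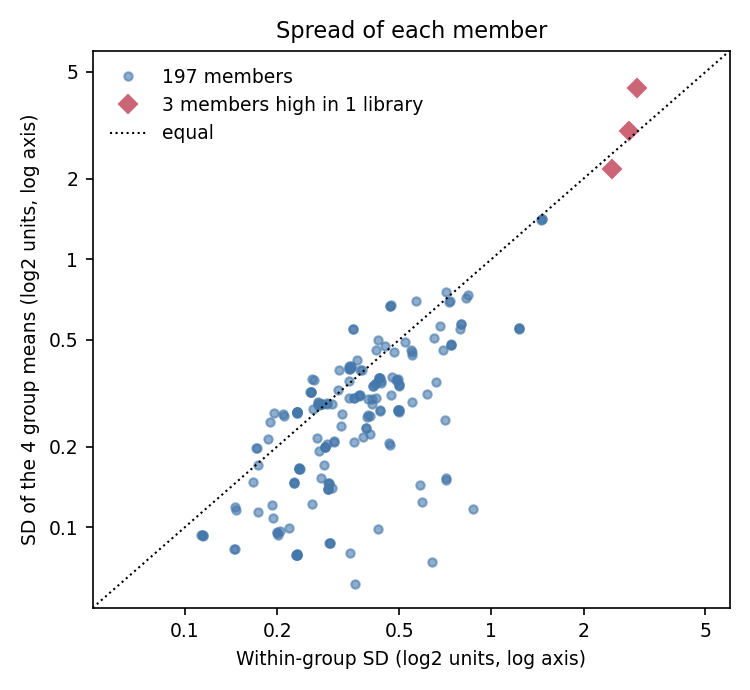
SD of the 4 group means (y axis) against SD within groups (x axis) for each member, both in log2 units on log axes, with the dotted line at equality. The 3 members high in SRA replicate 3 (diamonds) lie beyond 2 on both axes, and 53 of the 200 members lie above the line.

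At the steady end stood uc007fen.2, a cluster of 4 rows, with an SD within groups of 0.114. Its values were 66675, 67150 and 56400 in CON, 59318, 64439 and 50972 in SRA, 55738, 58267, 52063 and 53858 in CON_CGP, and 51334, 56499, 56942 and 56692 in SRA_CGP. All 14 values lay between 50972 and 67150. Next came uc009jfy.1 with 0.145 and uc007ups.1 with 0.146. At the other end, the 3 rows high in SRA replicate 3 had SDs of 2.98 (uc007jmj.1), 2.81 (uc009jrf.1) and 2.47 (uc009nwr.1). A total of 9 members had an SD above 1. The row uc008npe.1, next in line and outside the rule for naming, was picked once its values were known. It read 58342, 19773 and 21577 in CON, 10127, 1524 and 4760 in SRA, 92110, 74019, 14249 and 17823 in CON_CGP, and 85068, 43727, 6753 and 6843 in SRA_CGP. In the groups infused with CGP its 4 highest values were those of the 4 males.

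Members were also grouped by how they moved over the 14 libraries (average linkage on 1 - r of log2 values, cut at 0.6), as a description with no test. This gave 9 patterns. The largest held 68 rows in 54 clusters, the run of 8 among them, and 12.9% of all libraries. Its sum ran from 7.86% of CON_CGP replicate 2 to 19.2% of SRA_CGP replicate 3, a 2.45-fold range. The other 132 members together ranged 1.62-fold. The 68 rows were grouped because they move together in these libraries, whereas the 132 pool the other patterns. The wider range thus follows in part from the grouping. The pattern of uc008hpr.2 held 28 rows and 4.43% of all libraries, and that of uc008oqs.1 held 22 rows and 3.13%, with its highest share, 6.01%, in SRA replicate 3. The 3 members high in that library belong to this pattern, and its other 19 rows held 4.07% there and 4.00% in SRA_CGP replicate 4. The second largest by rows, 46 rows led by uc008jkg.1, held 3.502% and was highest in CON_CGP replicate 1 with 5.81% and lowest in SRA replicate 2 with 1.99%.

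The effect of the transgene under saline was tested by limma with a sex term over all 39956 transcripts. No member passed at an adjusted p of 0.05, nor did any other transcript (0% of all tested). The smallest adjusted p of a member was 0.131. At an unadjusted p under 0.05 there were 54 members, 36 higher and 18 lower in SRA, or 27% against 22.9% of all tested. Counts of this kind, here and below, were taken over all 200. They can therefore hold uc007jmj.1, uc009jrf.1 and uc009nwr.1, members only through SRA replicate 3. When the replicate number was added as a block, 4 members (2%) and 1.33% of all tested transcripts passed. Of the 4, all higher in SRA, 3 were uc007jmj.1, uc009jrf.1 and uc009nwr.1, members only through SRA replicate 3, and the fourth was uc008oqr.1. With only the CON and SRA libraries in the fit 25 members passed, 14 higher and 11 lower, or 12.5% against 24.3% of all tested. The values of SRA and CON did not overlap for 61 members (30.5%), a smaller portion than the 42.5% of all tested transcripts. Of these, 35 were higher in SRA (6.31% of all tested were) and 26 lower (36.2%). The 35 include uc007jmj.1, uc009jrf.1 and uc009nwr.1, which SRA replicate 3 put among the 200. The counts by direction depended on scaling. The median log2 difference was 0.19 for the members and -0.25 for all tested transcripts, with 119 members higher and 81 lower. After median-of-ratios scaling 166 were higher and 34 lower, and after quantile normalization 74 were higher and 126 lower. As deposited and with median-of-ratios alike, 162 members lay above the median of all tested transcripts. Quantile normalization gives every library the same distribution of values. It thus largely removes a shift shared by the most abundant rows and cannot decide whether there was one.

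For uc007xqd.1, the member with the smallest p, the values were 49383, 82834 and 51441 in CON and 147227, 191019 and 106979 in SRA. The SRA values were all higher, by 1.22 ± 0.28 (SE) on the log2 scale (limma adjusted p = 0.131). For uc008goj.1 the values were 90937, 70936 and 70414 in CON and 48068, 35669 and 46639 in SRA, all lower, with a difference of -0.71 ± 0.20 (limma adjusted p = 0.165). Neither passed, whereas in the fit of CON and SRA alone their adjusted p were 0.0422 and 0.0435. The row uc007jmj.1, described above, had a difference of 9.35, and of 4.77 without SRA replicate 3 (limma adjusted p = 0.366). Since that library put it among the 200, no test with it is given. The difference of uc008chg.1 was -0.50 (limma adjusted p = 0.180).

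Under CGP, no member passed for the transgene either (smallest limma adjusted p = 0.702), against 0.00250% of all tested transcripts, and 22 members had an unadjusted p under 0.05 (11% against 6.72%). SRA_CGP and CON_CGP did not overlap for 3 members, uc009kic.1, uc012fwk.1 and uc009mun.1, named after their values were seen, all higher in SRA_CGP (1.5% of members, against 0.941% of all tested in that direction, 1.59% in the other and 2.53% in either). For uc009mun.1 the values were 42122, 35754, 26329 and 41828 in CON_CGP and 53046, 46534, 57756 and 54472 in SRA_CGP. The gap between the groups was smaller than the spread within CON_CGP, and the difference was 0.56 ± 0.20 on the log2 scale (limma adjusted p = 0.702). Of the named members, uc009vev.1 of the run differed by 1.25 and uc009enk.1 by 0.64, while uc008ikb.2 differed by -0.49 and uc008zrm.1 by -0.64 (limma adjusted p = 0.702 for each).

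Averaged over both infusions, again no member passed for the transgene (0.0375% of all tested did). The smallest limma adjusted p, 0.0782, was that of uc009vev.1, the least abundant row of the run. Its values were 16872, 32994 and 17859 in CON, 50732, 66432 and 30858 in SRA, 16362, 14523, 15796 and 27913 in CON_CGP, and 35571, 25784, 80554 and 45845 in SRA_CGP. Most transgenic libraries lay above the non-transgenic ones. The overlap came from CON replicate 2 and CON_CGP replicate 4 on one side and SRA_CGP replicate 2 and SRA replicate 3 on the other, and the difference was 1.10 ± 0.25 (SE). Leaving out CON replicate 2 gave 33 members that passed, 16.5% against 4.06% of all tested. Leaving out SRA_CGP replicate 2 gave 19, or 9.5% against 11.9%, of which uc007jmj.1 and uc009jrf.1 are members only through SRA replicate 3. At an unadjusted p under 0.05 there were 70 members, 50 higher and 20 lower, or 35% against 28.5% of all tested. Here too the counts by direction depended on scaling. As deposited 125 members were higher and 75 lower, with median-of-ratios 164 and 36, and with quantile normalization 77 and 123. The last has the limit given above for the contrast under saline. As deposited and with median-of-ratios alike, 164 members lay above the median of all tested transcripts. No member separated all transgenic from all non-transgenic libraries (0.388% of all tested did, 0.0926% higher and 0.295% lower). The next named members were uc007mkl.1 with 0.57 (limma adjusted p = 0.0791), uc008ikb.2 with -0.45 (0.0859) and uc008goj.1 with -0.45 (0.1003).

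The effect of CGP was tested in each genotype. These contrasts share the saline groups with the contrast of the transgene. In non-transgenic mice no member passed in limma (0% of all tested, smallest adjusted p = 0.948). At an unadjusted p under 0.05 there were 21 members in 13 clusters, all higher with CGP, or 10.5% against 3.97%. The 21 include uc007jmj.1, a member only through SRA replicate 3. By direction alone 139 members were higher and 61 lower as deposited. With median-of-ratios these were 166 and 34, and with quantile normalization, which has the limit given above, 101 and 99. For 8 members, all higher, CON_CGP did not overlap CON (4.0%, against 1.73% of all tested higher, 4.12% lower and 5.85% in either direction). Among the 8 are uc007jmj.1, uc009jrf.1 and uc009nwr.1, members only through SRA replicate 3. The named members were uc009lwq.1 with 0.60, uc007feo.2 with -0.20 and uc008ntg.2 with -0.23 (limma adjusted p = 0.948 for each), and uc007jmj.1 with 7.21. Since SRA replicate 3 put uc007jmj.1 among the 200, no test with it is given. The difference of uc008ntg.2 changed sign, to 0.05, without the 6 libraries that stood apart on transcripts of the other sex.

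In transgenic mice no member passed either (limma, 0% of all tested, smallest adjusted p = 0.651). At an unadjusted p under 0.05 there were 34 members in 23 clusters, 25 higher and 9 lower, or 17% against 6.95%. SRA_CGP did not overlap SRA for 28 members in 18 clusters, 25 higher and 3 lower, which is 14.0% against 6.10% of all tested, of which 3.68% were higher and 2.43% lower. Among the lower, uc009jsu.2 read 76643, 97040 and 139684 in SRA and 38432, 39395, 66512 and 46776 in SRA_CGP, a difference of -1.10 (limma adjusted p = 0.657). For uc007xqd.1 the SRA_CGP values were 66668, 84332, 107249 and 82290, and the difference from SRA was -0.75 ± 0.26 (limma adjusted p = 0.674). Its highest SRA_CGP value lay above the lowest SRA value, 106979. For uc007kwo.1 the difference was 0.59.

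Over both genotypes the clearest member for CGP was uc009fib.1. Its values were 67128, 57898 and 67946 in CON, 64291, 51843 and 65551 in SRA, 129775, 89605, 71204 and 81333 in CON_CGP, and 114177, 90258, 83828 and 112815 in SRA_CGP. All 8 CGP libraries lay above all 6 saline libraries, the only such member (0.5% of members against 0.0851% of all tested, 0.0425% in each direction). The difference was 0.61 ± 0.14 (SE) on the log2 scale and did not pass (limma adjusted p = 0.522). It was 0.53 in non-transgenic and 0.69 in transgenic mice, and the difference between those effects was 0.16 ± 0.28 (limma adjusted p = 0.922). No member passed for CGP (0.00250% of all tested did), and 41 members, 35 higher and 6 lower, had an unadjusted p under 0.05 (20.5% against 6.75%). Without SRA replicate 3, 1 member passed. Over the 14 omissions of a single library, 0% to 0.0752% of all tested transcripts passed. The other named members were uc008ntp.1 with 0.41 (limma adjusted p = 0.564), uc007wxp.1 with -0.82 (0.709) and uc007hle.1 with -0.49 (0.723). Under each of 3 scalings more members were higher than lower with CGP: 141 and 59 as deposited, 147 and 53 with median-of-ratios and 135 and 65 with quantile normalization. The limit of quantile normalization given above holds here too.

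Whether the effect of CGP differed by genotype was tested as an interaction. No member passed in limma (0% of all tested, smallest adjusted p = 0.898), and 7 members had an unadjusted p under 0.05 (3.5% against 3.98%). The 7 include uc007jmj.1, a member only through SRA replicate 3. The named members were uc008goj.1 with 0.51, uc007iyk.1 with 0.68, and uc007xqd.1 with -0.99 (limma adjusted p = 0.898 for each). The value of uc007jmj.1 was -7.28, and -2.70 without SRA replicate 3. A test for any difference among the 4 groups also gave no member (smallest adjusted p = 0.269, against 0.00250% of all tested called), with 62 members at an unadjusted p under 0.05 (31% against 14.0%). Among the 62 are uc007jmj.1, uc009jrf.1 and uc009nwr.1, members only through SRA replicate 3.

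Sex was the only term with members that passed. Of the 200, 14 members in 10 clusters passed in limma, 9 higher and 5 lower in females, or 7% against 5.31% of all tested transcripts. For uc007iyk.1 males had 22844 to 41818 with a median of 36437 (n = 7), and females 45404 to 134620 with a median of 88869 (n = 7). The sexes did not overlap, and the row rose by 1.32 ± 0.23 (SE) on the log2 scale in females (limma adjusted p = 0.00436). For uc008rie.1, in a cluster of 3 rows, males had 7471 to 54429 with a median of 22291 and females 30231 to 105942 with a median of 77936. The sexes overlapped, and the difference was 1.66 ± 0.40 (limma adjusted p = 0.0334).

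Among the rows lower in females, uc008ikb.2 had 24778 to 64319 with a median of 38553 in males and 19795 to 38329 with a median of 24254 in females, a difference of -0.55 ± 0.12 (limma adjusted p = 0.0209). For uc009azo.1 males had 61243 to 150779 with a median of 80413 and females 43024 to 73636 with a median of 62608, a difference of -0.57 ± 0.15 (limma adjusted p = 0.0457). These ranges overlapped in both rows. The sexes did not overlap for 5 members, all higher in females and named after their values were seen: uc012gxt.1, uc007iyk.1, uc009qxs.2, uc009qxr.2 and uc007exv.1 (2.5%, against 2.56% of all tested higher, 0.255% lower and 2.82% in either direction). For uc012gxt.1 males had 17997 to 52640 and females 53970 to 103194. The rows uc009qxs.2 (17965 to 52550 and 53886 to 103080) and uc009qxr.2 (17628 to 51799 and 53162 to 101780) were nearly the same. These rows are therefore not separate signals. For uc007exv.1 males had 22860 to 32267 and females 33823 to 78766.

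**Figure D5:**
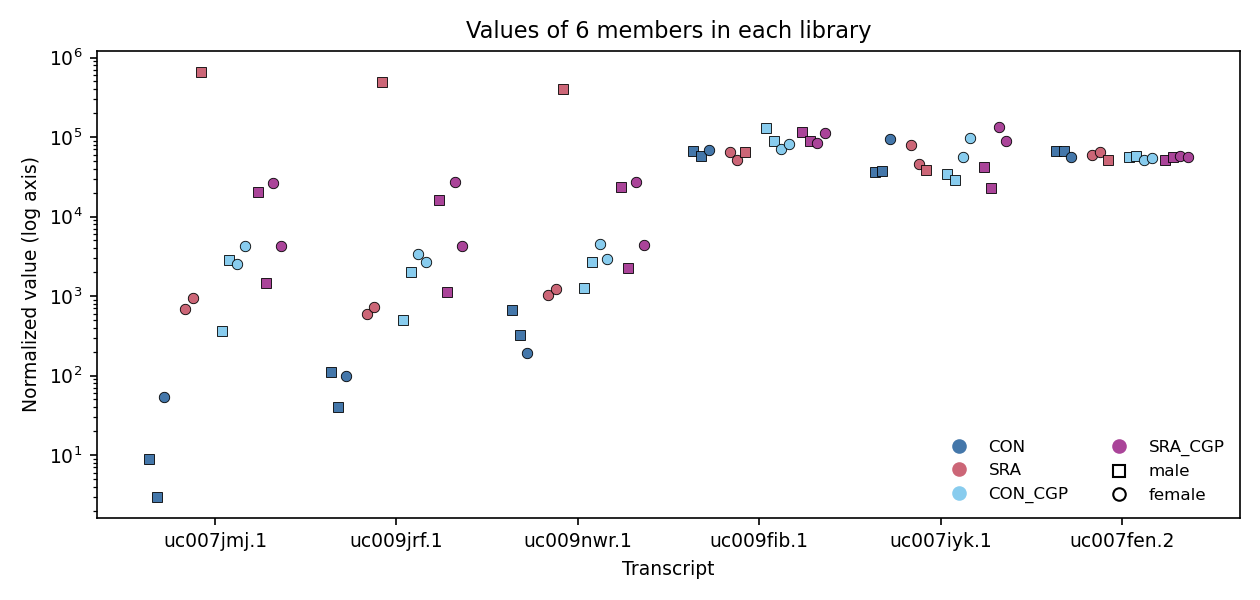
Normalized values (y axis, log scale) of 6 members in each library, coloured by group, squares for males and circles for females. The first 3 are high in SRA replicate 3, uc009fib.1 is higher in all 8 CGP libraries than in the 6 saline libraries, uc007iyk.1 is higher in the 7 females than in the 7 males, and uc007fen.2 stays between 50972 and 67150.

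The calls by sex depended on single libraries and settings. Without the 6 libraries that stood apart on transcripts of the other sex no member passed (limma, 8 libraries left in the fit), against 1.49% of all tested. An unadjusted p under 0.05 was found for 22 members, a count given without the share of all tested. The log2 differences in that fit were 1.46 for uc007iyk.1, 2.25 for uc008rie.1, 1.36 for uc012gxt.1 and 1.15 for uc007exv.1, none smaller than with all libraries, and -0.39 for uc008ikb.2 and -0.30 for uc009azo.1, which were smaller in size. Leaving out single libraries gave 7 members without CON replicate 1, 36 without CON replicate 2, 7 without SRA replicate 2, 8, 7 and 7 without CON_CGP replicates 2, 3 and 4, and 6, 8 and 5 without SRA_CGP replicates 1, 3 and 4. Over the 14 omissions, 3.86% to 5.53% of all tested transcripts passed. With the replicate block 12 members passed (6% against 5.51% of all tested), all lower in females. Of the 12, uc009jrf.1 and uc009nwr.1 are members only through SRA replicate 3, a male, so no result by sex is drawn from them. In that fit uc007iyk.1 (0.0503), uc008rie.1 (0.126), uc008ikb.2 (0.0925) and uc009azo.1 (0.0564, each a limma adjusted p) no longer passed. The call of uc008rie.1 was lost when any of 10 of the 14 libraries was left out. Its log2 difference in the 14 omissions was 1.41 to 2.03. That of uc009azo.1 was lost when any of 12 was left out (-0.65 to -0.47 over the 14), and with median-of-ratios scaling (limma adjusted p = 0.0944) and quantile normalization (0.0869).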

How the data were processed

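Per the labels' protocols, Trizol and RNeasy columns were used to purify total RNA, DNase to remove DNA, and an Illumina protocol to build indexed libraries. The build mm9 and the tools edgeR, Bowtie and FastQC are named without versions, per the submitters' processing notes. How the authors counted and normalized reads is not stated in these sources. As deposited, the values are scores: whole numbers that the authors' column headers call normalized counts, for 55419 UCSC transcripts, of which 7183 are at 0 in every library. Every whole number from 1 to 40 occurs in every library, so no step of more than 1 was seen and reads were not recovered. The depth per library is unknown, and no counting interval was computed.

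The 200 rows of highest mean over the 14 columns were kept, with ties by row order. The members, lists and tests were chosen with earlier results of these data known. Groups, replicate numbers and sex came from the labels. All transcripts with a mean of at least 10 (39956, or 72.1% of rows) were fitted with limma 3.58.1 in R 4.3.3 on log2(value + 1), with 4 group terms and a sex term, robust and trended variances and Benjamini-Hochberg adjustment over all tested transcripts at 0.05. Log2 differences are on that scale. Shares and evenness were tested by exact 2-sided permutation of libraries within the other factor, adjusted over 9 tests, and over 12 for pairs of groups. Both were tested on simulated data first. Transcripts named are the highest row of the first 10 clusters, those at the limit of 200, up to 2 members in each direction per contrast (largest among those that passed, otherwise smallest p), and the 3 clusters with the largest and the smallest SD within groups.

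Same-numbered libraries of CON and SRA deviated together (r = 0.131, 0.145 and 0.316 over all tested transcripts), as did those of SRA and SRA_CGP (0.123, 0.625 and 0.576). Those of CON_CGP and SRA_CGP (-0.084, 0.565, -0.202 and -0.262) and of CON and CON_CGP (-0.237, -0.204 and 0.106) did not all do so. The first 2 contrasts therefore met the criterion of 0.1 in every pair for reading the numbers as pairs, although the labels do not say what a number shares and each of those pairs joins mice of different sex. Alternatives were other pseudocounts, scalings, filters, numbers of rows, a replicate block, contrasts fitted alone and libraries left out.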

Additional observations from a re-analysis of the deposited data

Results flagged for a closer look

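Among 98 sets of 4 libraries examined over 49 values, 5 held a library whose gap to its nearest neighbour exceeded Dixon's critical value for 4 samples, where chance gives about 1 in 20. In CON_CGP replicate 4 the row uc009vev.1 of the run of 8 was at 27913, against 14523 to 16362 in the other libraries of the group. In SRA_CGP replicate 1, uc007fen.2 was at 51334 against 56499 to 56942, and uc007feo.2 at 50908 against 55840 to 56412. These rows belong to the same cluster and are not separate signals. In SRA_CGP replicate 4, uc008ntg.2 was at 38119 against 27551 to 28283, and uc007exv.1 at 67245 against 27011 to 33823. The groups of 3 libraries, SRA replicate 3 among them, are too small for this test.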

How the results depend on the processing

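Most results kept their direction and their side of the threshold in the alternatives tried, with the exceptions given here. Leaving aside the alternatives added later, 383 of 419 values of summary results did so. Of the others, 15 were reversed, 17 were classed as moved and 4 as stronger. So did 1077 of 1120 values of single transcripts (34 lost and 9 gained a call). In contrasts other than sex no member passed in the main fit, so there keeping a side meant staying uncalled. The replicate block gave 4 members for the transgene under saline, 7 averaged over both infusions and 12 by sex (14 without it), and it left the count of members at 0 in the other contrasts. Both the 4 and the 12 include rows that are members only through SRA replicate 3. The 7 are given without the share of all tested transcripts, so they are not read as a result about the members. The fit of CON and SRA alone gave 25. For sex, median-of-ratios scaling gave 9, also without SRA replicate 3, and the 100 highest rows held 8. The 9 and the 8 too are given without the share of all tested transcripts, so they are not read as a result about the members. In the main fit 5.31% of all tested passed by sex. Without the 6 libraries that stood apart on transcripts of the other sex, chosen after seeing the data, 0 members passed by sex, the share for CGP against saline was -2.18 points, that of the 10 highest clusters -1.91 points, and uc008ntg.2 had 0.0469 for CGP in non-transgenic mice. Without SRA replicate 3 and with median-of-ratios scaling, also chosen later, 1 member passed for CGP and 1 for any group difference. These counts likewise lack the share of all tested transcripts.

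Leaving out single libraries gave 0 to 33 members for the transgene averaged over infusions, against 0.0025% to 11.9% of all tested transcripts. For CGP it gave 0 to 1 (0% to 0.0752% of all tested) and for sex 5 to 36 (3.86% to 5.53%). It gave an effective number for females against males of -13.6 to -7.63, and 1.89 to 4.24 points for the share of the 10 highest clusters. For CGP against saline neither measure had a stable sign: the effective number ran from -1.99 to 3.63 and the 10 highest clusters from -0.630 to 1.06 points. The first was -0.516 when permuted within sex and the second -0.157 without the highest cluster. The cause of these changes was not tested. The share by transgene stayed between 3.94 and 5.90 points. As depth is unknown, counting error is not known for any value.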
